A study of Rattus norvegicus with 25 samples.

Results

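The striatum of adolescent male Lister hooded rats whose dams had drunk nicotine (Nic) was compared with that of rats whose dams had free food and plain water (Con). The comparison used all arrays whose titles name a gestational nicotine exposure, 7 in number, and the 8 arrays titled as controls, so 15 of the 25 arrays of the series, and it ran across every gene measured. Each array held the RNA of 1 animal killed between postnatal days 35 and 42. Nic dams received nicotine bitartrate in the drinking water, at rising concentrations from before mating, and the pups were therefore exposed through the mother and were themselves not dosed. Nicotine in the drinking water can also lower how much a dam eats and drinks, and the drug and the intake cannot be told apart in this comparison. The 10 remaining arrays were of offspring whose dams were pair-fed, that is given the amount of food that the nicotine dams had eaten (Con-Pf), and they entered the fit and are quoted where they bear on a result. Which animals shared a litter was not given, so the p-values measure the spread between animals, some of which may be littermates.

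Nicotine acts on nicotinic acetylcholine receptors, ion channels assembled from alpha and beta subunits and normally opened by acetylcholine. In the striatum these receptors sit largely on the endings of dopamine neurons that project from the midbrain and on local interneurons, and acetylcholine from the cholinergic interneurons acts there on dopamine release. Most striatal neurons are medium spiny projection neurons, which carry dopamine receptors and make the opioid and tachykinin peptides. Long exposure to nicotine is known to raise the number of receptors at the cell surface, largely through folding and assembly of the subunits, for which dedicated chaperones exist.

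Values are on a log2 scale, so a difference of 1 is a doubling, and each difference is given as Nic minus Con with its standard error (SE). Of 29214 probe sets in the table, the 14607 with a mean level of at least 6.97 were tested, and they represent 8992 named genes. No probe set differed between Nic and Con at an adjusted p under 0.05 (0 of 14607, 0%; limma, Benjamini-Hochberg). The smallest adjusted p was 0.268, and the methods' t-test also gave 0 calls. At an unadjusted p under 0.05 limma gave 2370 probe sets, of which 1791 (12.3%) were higher and 579 (3.96%) lower in Nic. None of the differences described below therefore passed the test, and each is given as a measured value.

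The 95% intervals of limma give the range of differences that these arrays allow. The median SE of a difference was 0.0618 and the interval reached a median of 0.127 to either side. For 14324 of 14607 probe sets (98.1%) the whole interval lay between -0.5 and 0.5, the size the study set as its limit. For 10075 (69%) it lay between -0.25 and 0.25. Measured differences were small, with a median size of 0.0691, and 301 probe sets (2.06%) reached 0.25 in either direction, 193 of them higher and 108 lower in Nic. Only 5 of the tested probe sets reached 0.5.

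2 Con arrays stood apart and touched many of the values below. On the first principal component, which held 30.4% of the variance, Con 3 scored -25.2 and Con 5 scored -33.9, whereas the other 23 arrays lay between -11.6 and 9.6. The Con animals were also the more variable group, with a median SD over probe sets of 0.141 against 0.0926 in Nic, and 11480 probe sets (78.6%) had the larger SD in Con. Without Con 3 and Con 5 the median SD of Con was 0.11. The count at an unadjusted p under 0.05 was then 541 higher and 138 lower in Nic, and the share of named genes that were higher was 67.7%, against 62.5% with all arrays. Values below are given without these 2 arrays for many of the differences that they moved by over 1.5 times. The study kept a sample with a low RNA integrity number, which it held to be likely a technical fault of chip loading. It did not say which animal that was, and the part of RNA quality in the values of Con 3 and Con 5 was not tested.

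**Figure D1:**
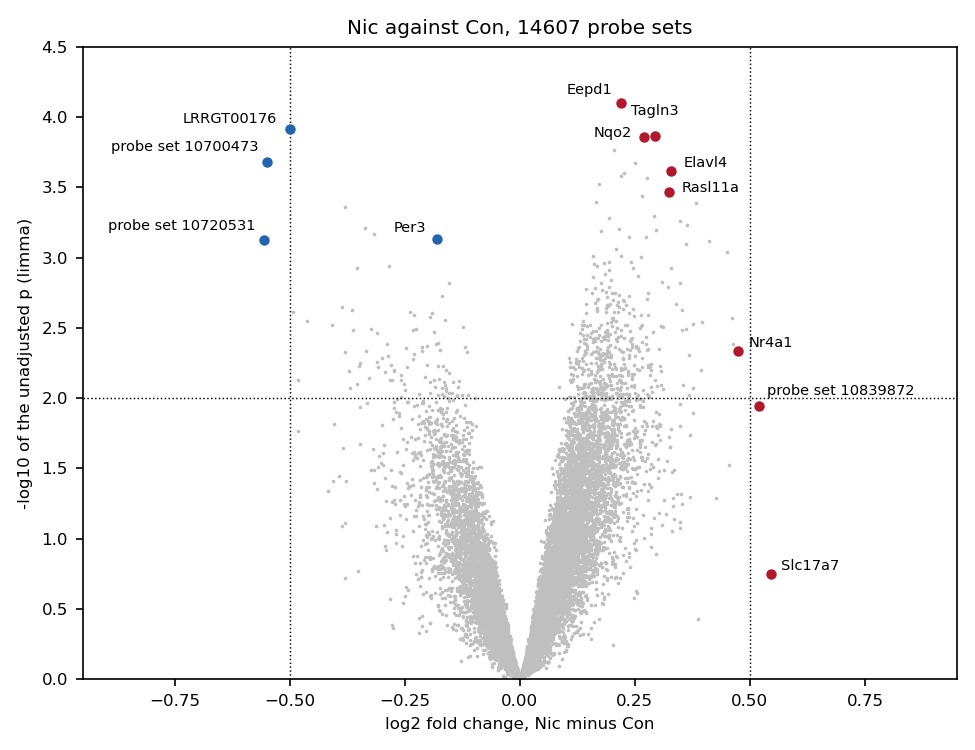
The log2 fold change of each of 14607 probe sets (x axis, Nic minus Con) is plotted against -log10 of its unadjusted p from limma (y axis), and dotted lines mark the study's limits of 0.5 in size and a p of 0.01. Most points lie inside the limits, 3 lie beyond both on the side lower in Nic, and more of the small p-values lie on the side higher in Nic.

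Past the study's thresholds, an unadjusted p under 0.01 with a size of at least 0.5, lay 3 probe sets (0.0205%), all lower in Nic, of which the methods' t-test kept 2 (0.0137%). LRRGT00176, a transcript of unknown function that the study names for this comparison, had a lowest, median and highest level of 8.05, 8.38 and 8.51 in Nic and of 8.47, 8.78 and 9.43 in Con. 5 of 7 Nic animals lay below every Con animal, and the 2 highest levels were those of Con 5 and Con 3. The difference was -0.50 (SE 0.111, unadjusted p = 0.000122, limma adjusted p = 0.268), and it was -0.36 without Con 3 and Con 5. Con-Pf animals lay between, from 8.23 to 8.81 with a median of 8.53. The unnamed probe set 10700473 ranged from 7.45 to 8.31 (median 8.04) in Nic and from 8.24 to 9.08 (median 8.50) in Con, a difference of -0.55 (SE 0.128) that became -0.42 without the 2 arrays. Probe set 10720531, also unnamed, ranged from 8.57 to 9.77 (median 9.05) in Nic and from 9.30 to 10.25 (median 9.76) in Con, a difference of -0.56 (SE 0.146), or -0.40 without them. In all 3 the highest Con level was that of Con 5, and none of the 3 kept its place past the thresholds without Con 3 and Con 5.

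The 2 probe sets that were higher in Nic by 0.5 or more did not pass the study's p limit. Probe set 10839872, unnamed, differed by 0.52 (SE 0.191, unadjusted p = 0.0113), with all 7 Nic animals above the Con median. Slc17a7, the vesicular glutamate transporter of cortical excitatory neurons, ranged from 7.34 to 10.47 (median 8.82) in Nic and from 7.50 to 10.25 (median 7.93) in Con. The groups overlapped over nearly their whole range, and the difference of 0.55 had an SE of 0.395.

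4 of 14607 probe sets (0.0274%) separated the groups completely, and in each every Nic animal lay above every Con animal. Among so many probe sets some can separate groups this small by chance alone. Whether the count exceeded chance was not tested, so the separation is given as a description only. Sumo3, a small protein that is conjugated to other proteins, ranged from 10.68 to 10.86 in Nic and from 10.31 to 10.67 in Con, a difference of 0.19 (SE 0.0528). Tmem255a, a transmembrane protein, ranged from 9.22 to 9.44 in Nic and from 8.95 to 9.21 in Con, a difference of 0.17 (SE 0.05). In both genes the lowest Nic animal and the highest Con animal nearly touched. The unnamed probe sets 10700462 (0.35, SE 0.0983) and 10824821 (0.41, SE 0.108) were the other 2. At 0.18 and 0.32 their differences were smaller without Con 3 and Con 5, as was that of Sumo3 (0.12).

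Among named genes, the 12 with the smallest p on the higher side included several with neuronal functions. Eepd1, an endonuclease-like protein of DNA repair, had the smallest p of all (7.87e-05, unadjusted). It ranged from 8.08 to 8.37 (median 8.14) in Nic and from 7.88 to 8.09 (median 7.95) in Con, with 6 of 7 Nic animals above every Con animal, and differed by 0.22 (SE 0.0471). Tagln3, a neuronal actin-binding protein, ranged from 9.54 to 10.00 in Nic and from 9.11 to 9.57 in Con and differed by 0.29 (SE 0.0659). The RNA-binding protein gene Elavl4 (HuD), which stabilises transcripts of differentiating neurons, ranged from 8.14 to 8.80 in Nic and from 7.88 to 8.25 in Con and differed by 0.33 (SE 0.0775). Both had all 7 Nic animals above the Con median, and in both the highest animal of all was Nic 2.

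Nqo2, a quinone reductase, ranged from 7.31 to 7.56 (median 7.40) in Nic and from 6.97 to 7.44 (median 7.14) in Con and differed by 0.27 (SE 0.0608). Its 7 Nic animals all lay above the Con median, and 3 lay above the highest Con animal. Others of this group were Med19 (0.25), which belongs to the transcriptional Mediator, Trappc5 (0.23), a subunit of the TRAPP vesicle tethering complex, and Tox (0.22), a nuclear protein with a DNA-binding HMG box. Dolpp1 (0.17) takes part in the recycling of dolichol in protein glycosylation, Fbxo7 (0.17) is an F-box protein linked to parkinsonism, and Parm1 (0.27) is a membrane glycoprotein. The other 2 of the 12 were Tmem35a and Rasl11a, described below. Without Con 3 and Con 5 all 12 differences kept their direction and ranged from 0.12 (Fbxo7) to 0.29 (Rasl11a).

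On the lower side, 2 of the 12 named genes with the smallest p encode intracellular calcium channels. Itpr1, the inositol trisphosphate receptor, ranged from 12.04 to 12.09 in Nic and from 12.06 to 12.57 (median 12.19) in Con and differed by -0.19 (SE 0.0582). Ryr3, a ryanodine receptor, ranged from 9.15 to 9.44 in Nic and from 9.22 to 9.99 (median 9.48) in Con and differed by -0.29 (SE 0.0916). The highest Con level was that of Con 5 in both, and their differences were -0.10 and -0.17 without Con 3 and Con 5. Dgki, a diacylglycerol kinase, differed by -0.24 (SE 0.071), and by -0.14 without those arrays.

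Per3, a period gene of the circadian clock, had the smallest p among named genes lower in Nic (0.000731, unadjusted). Its level ranged from 9.22 to 9.47 (median 9.33) in Nic and from 9.38 to 9.74 (median 9.52) in Con. All 7 Nic animals lay below the Con median, and the difference was -0.18 (SE 0.0472), or -0.14 without the 2 arrays. The remaining genes of this group were Leng8 (-0.28), the ubiquitin protease gene Usp31 (-0.17), the sodium-proton exchanger Slc9a8 (-0.16), the adaptor Shc2 (-0.12), the chloride channel Ano1 (-0.18), Rig1 (-0.20), the polycystin Pkd1 (-0.21) and the cytoskeletal linker Plec (-0.12). A second probe set of Leng8 differed by -0.09. In 10 of the 12 genes with the smallest p on this side the highest Con animal was Con 5, and without the 2 arrays Usp31 differed by -0.10 and Rig1 and Pkd1 each by -0.12.

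**Figure D2:**
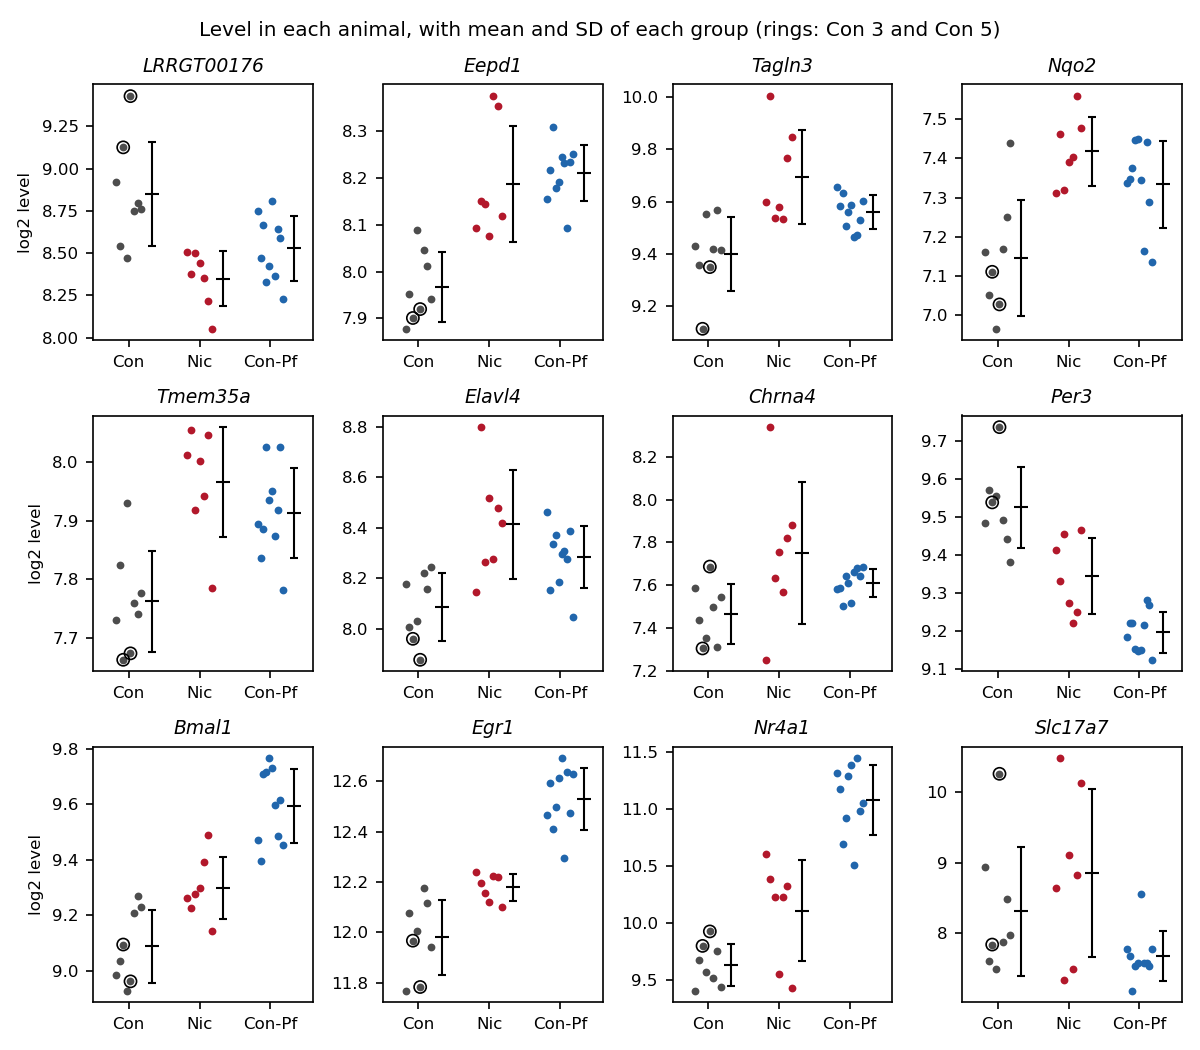
The log2 level (y axis) of 12 genes is shown for each animal of the Con, Nic and Con-Pf groups, with the group mean and SD beside the points and rings around Con 3 and Con 5. The groups overlap in most panels, LRRGT00176 and Per3 lie lower in Nic than in Con, and Egr1, Nr4a1 and Bmal1 lie highest in Con-Pf.

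The nicotinic receptor genes were looked at next, as the direct targets of the drug. Of 16 subunit genes on the array, 5 passed the filter on level. The mean over 25 arrays of the other 11 was below the limit. Among them were Chrna6 (mean 5.14 in Nic and 5.29 in Con, n = 7 and 8) and Chrnb3 (4.48 and 4.60), while Chrna5 (7.10 and 6.98) lay near the limit. Chrna6 and Chrnb3 are known from dopamine neurons, whose cell bodies lie outside the striatum.

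3 of the 5 measured subunits were higher in Nic at an unadjusted p under 0.05, against a background of 14.4% of genes higher and 3.38% lower at that limit. Chrna4 and Chrnb2 encode the subunits of the main high-affinity nicotine receptor of the brain. Chrna4 had a lowest, median and highest level of 7.25, 7.76 and 8.34 in Nic and of 7.30, 7.47 and 7.69 in Con. 6 of 7 Nic animals lay above the Con median and 4 above the highest Con animal, but Nic 1 was the lowest animal of both groups. The difference was 0.28 (SE 0.095, unadjusted p = 0.00597, limma adjusted p = 0.268), and 0.29 without Con 3 and Con 5. Chrnb2 ranged from 10.85 to 11.01 (median 10.98) in Nic and from 10.66 to 11.03 (median 10.79) in Con, so all 7 Nic animals lay above the Con median and within the range of Con. It differed by 0.14 (SE 0.0467), or 0.12 without those arrays, and in Con-Pf it had a median of 10.97.

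Chrna3, a subunit best known from autonomic ganglia and the habenula, ranged from 6.86 to 7.50 (median 7.27) in Nic and from 6.90 to 7.15 (median 7.02) in Con. 5 of 7 Nic animals exceeded every Con animal, and the difference was 0.20 (SE 0.0696). Chrnb4, its usual partner, differed by 0.05 (95% interval -0.04 to 0.15). Chrna7, which forms a receptor of its own kind with low affinity for nicotine, differed by -0.00 (95% interval -0.13 to 0.13). The intervals of all 5 subunits lay inside 0.5.

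The chaperones and modulators of nicotinic receptors were higher in Nic in 11 of 11 genes measured, where 62.5% of all genes were higher. At an unadjusted p under 0.05, 6 of them were higher, where 14.4% of all genes were. Their median difference was 0.11, against 0.03 for all genes. Without Con 3 and Con 5 the median was 0.07, and 11 of 11 were again higher, against 67.7% of all genes. In that setting 4 had such a p, where 4.36% of all genes were higher at that limit. The same 11 of 11 were found after centring each array on its median, where 50.6% of all genes were higher. Tmem35a (NACHO), an endoplasmic reticulum chaperone needed for assembly of several nicotinic receptors, ranged from 7.79 to 8.06 (median 8.00) in Nic and from 7.66 to 7.93 (median 7.75) in Con. All 7 Nic animals lay above the Con median and 5 above the highest Con animal. The difference was 0.20 (SE 0.0467, unadjusted p = 0.00017, limma adjusted p = 0.268), or 0.17 without the 2 arrays.

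Lypd6 and Ly6e belong to the Ly6 family of small anchored proteins that bind or modulate these receptors. Lypd6 ranged from 8.21 to 8.57 in Nic and from 7.85 to 8.36 in Con and differed by 0.31 (SE 0.0871). Ly6e ranged from 9.64 to 10.33 in Nic and from 9.22 to 10.12 in Con and also differed by 0.31 (SE 0.104), but by 0.16 without Con 3 and Con 5. Their relatives Lynx1 (0.11), Lypd1 (0.06) and Ly6h (0.11) had intervals that included 0, as had the chaperone Ric3 (0.11) and the ubiquitin-like protein Ubqln1 (0.05). Vsnl1, a calcium sensor that aids surface delivery of the alpha4 beta2 receptor, differed by 0.15 (SE 0.0562), Unc50 by 0.13 (SE 0.0552) and the 14-3-3 protein Ywhah by 0.11 (SE 0.0496). The differences of Lynx1 and Unc50 without Con 3 and Con 5 were 0.07, that of Ywhah was 0.06, that of Ric3 0.04 and that of Ly6h 0.02. The mean score of the 11 genes, each centred on its mean over the 25 arrays, was -0.229 for Con 3 and -0.246 for Con 5. It lay between -0.068 and 0.034 in the other Con animals and between -0.042 and 0.18 in Nic. In Con-Pf, whose dams were pair-fed and had no nicotine, it lay between -0.077 and 0.065, so the ranges of Nic and Con-Pf overlapped.

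**Figure D3:**
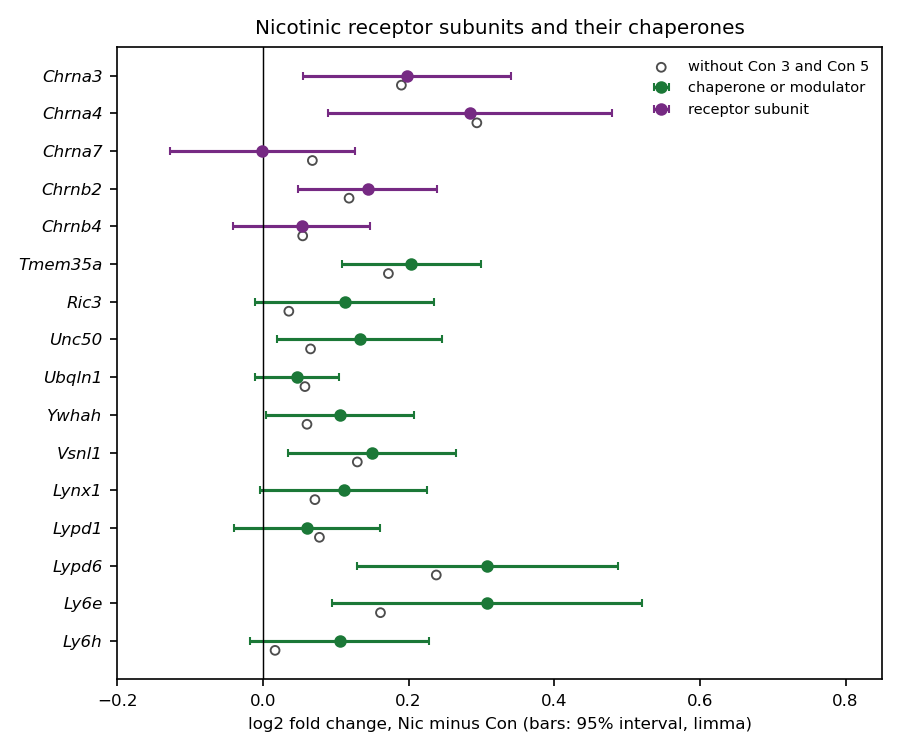
Points give the log2 fold change of 5 nicotinic receptor subunits and 11 chaperones or modulators (x axis, Nic minus Con) with 95% intervals from limma, and open circles give the value without Con 3 and Con 5. All filled points but that of Chrna7 (-0.00) lie above 0, and the largest are those of Lypd6 and Ly6e (0.31) and Chrna4 (0.28).

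Genes that handle acetylcholine itself showed no common direction, with 6 of 13 higher in Nic and a median difference of -0.00. 1 of them, the choline transporter Slc5a7 of cholinergic interneurons, had an unadjusted p under 0.05 (-0.21, SE 0.0902), and it differed by -0.09 without Con 3 and Con 5. The vesicular acetylcholine transporter Slc18a3 (0.10, SE 0.0891), the esterase Ache (-0.06, SE 0.0545) and the main striatal muscarinic receptors Chrm1 (-0.00, SE 0.0378) and Chrm4 (0.12, SE 0.0867) did not pass that limit. Without those arrays Slc18a3 differed by 0.05, Ache by -0.04 and Chrm4 by 0.01. In bulk tissue fewer cells of a type and less RNA per cell cannot be told apart.

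Dopamine receptors and the signalling proteins of medium spiny neurons also had a median of -0.00, with 9 of 19 genes higher. The 95% interval lay inside 0.5 in all 19 and inside 0.25 in 17. Drd1 ranged from 11.04 to 11.30 in Nic and from 11.12 to 11.30 in Con and differed by -0.01 (SE 0.0406), and Drd2 differed by 0.03 (SE 0.0425). The low-level receptor Drd5, which the study names from earlier work, ranged from 7.58 to 8.03 in Nic and from 7.71 to 8.34 in Con and differed by -0.15 (SE 0.096). Maoa, the oxidase that degrades monoamines, differed by -0.14 (SE 0.0555) and the striatal phosphodiesterase Pde10a by -0.12 (SE 0.0585). Leaving out Con 3 and Con 5 gave -0.06 for Drd5, -0.06 for Maoa and -0.03 for Pde10a. The markers of striatal neurons, all 13 with an interval inside 0.25, had a median of 0.03 (0.00 without those arrays, -0.01 after a further quantile normalisation), and Ppp1r1b (DARPP-32) had a mean of 12.88 ± 0.05 (SD, n = 7) in the Nic animals, against 12.84 ± 0.131 (SD, n = 8) in Con.

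Among neuropeptides and their receptors 17 of 20 genes were higher in Nic, with a median of 0.10, and 5 of them had an unadjusted p under 0.05 (25%, against 14.4% of all genes). Without Con 3 and Con 5 the median was 0.08, 16 of 20 were higher and 0 of 20 had such a p in either direction. The peptides of medium spiny neurons differed little, with 0.03 for Penk (SE 0.0303), 0.04 for Pdyn (SE 0.0569) and 0.05 for Tac1 (SE 0.0439). The largest difference of the list was that of Cck (0.34, SE 0.179), given with the cortical markers below. Npy, the peptide of a sparse interneuron class, ranged from 10.37 to 10.73 in Nic and from 9.98 to 10.52 in Con and differed by 0.22 (SE 0.0771). Sst, made by the same cells, ranged from 11.25 to 11.71 in Nic and from 11.04 to 11.53 in Con and differed by 0.17 (SE 0.0701). Tac3 (0.20, SE 0.0814) and the receptor Npy1r (0.22, SE 0.0868) were also higher, as was Calb2 (0.21, SE 0.0776), the calcium-binding protein calretinin of another interneuron class. The groups overlapped in Npy and Sst, and without Con 3 and Con 5 the differences were 0.14 for Npy and 0.11 for both Sst and Tac3. Oprd1, the delta opioid receptor, differed by -0.17 (SE 0.0799), or -0.07 without them. In the list of interneuron markers 8 of 11 genes were higher (72.7%, against 62.5% of all genes), with a median of 0.09 that became 0.05 without those arrays. At an unadjusted p under 0.05, 3 were higher and 1, Slc5a7, lower.

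Immediate early genes are transcribed within minutes of neuronal activity. In Nic 42 of 51 were higher than in Con (82.4%, against 62.5% of all genes), and the median was 0.10. At an unadjusted p under 0.05, 13 were higher and 0 lower, where 14.4% of all genes were higher and 3.38% lower. Without Con 3 and Con 5, 42 of 51 were again higher, against 67.7% of all genes. Of these 10 had such a p, against 4.36% of all genes. After centring 35 of 51 were higher (68.6%, against 50.6% of all genes). Of these 9 had such a p, against 737 of all 8992 genes. Some of these genes were singled out by the study on the same arrays, so that their differences from Con-Pf are not independent evidence. Con-Pf 9 and Con-Pf 10 carry a control description beside their title. The group sizes in the study's statistics section fit that description, whereas the arrays it lists as removed leave the sizes of the titles. With Con-Pf 9 and Con-Pf 10 counted as Con the count was 34 of 51 (66.7%, against 65% of all genes). The median was 0.03 and 1 gene had such a p. Nr4a1 then differed by 0.20, Rasl11a by 0.19, Egr1 and Rgs2 each by 0.09, Arc by 0.07, Nr4a3 by 0.05, Egr2 and Junb each by 0.03 and Npas4 by -0.44. The sign changed for Fosb (-0.01), Fos (-0.03) and Dusp1 (-0.02). The mean score of the list was 0.157 in Con-Pf 9 and 0.232 in Con-Pf 10. It lay between 0 and 0.357 in the other Con-Pf animals and between -0.258 and -0.104 in Con. The study's own difference for LRRGT00176, -0.50, was that of the grouping by title, whereas moving the 2 arrays gave -0.41.

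Nr4a1, an orphan nuclear receptor, had the largest difference of the list. Its level in Nic ranged from 9.43 to 10.60 (median 10.23), in Con from 9.40 to 9.92 (median 9.62) and in Con-Pf from 10.51 to 11.44 (median 11.11). 5 of 7 Nic animals lay above every Con animal and the other 2 lay within the Con range, and the difference was 0.47 (SE 0.153, unadjusted p = 0.00462, limma adjusted p = 0.268). Con-Pf minus Nic was 0.97 (limma adjusted p = 0.001), so the lower level of Nic relative to Con-Pf passed the test whereas the higher level relative to Con did not. Over all probe sets, 27 (0.185%) were called in Con-Pf minus Nic and 184 (1.26%) in Con-Pf minus Con.

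The zinc-finger factor Egr1 ranged from 12.10 to 12.24 in Nic, from 11.77 to 12.18 in Con and from 12.30 to 12.69 in Con-Pf. Nic minus Con was 0.20 (SE 0.0604) and Con-Pf minus Nic was 0.35 (limma adjusted p = 0.00215). Every Con-Pf animal lay above every Nic animal. Egr2 ranged from 7.87 to 8.40 in Nic and from 7.69 to 8.20 in Con and differed by 0.30 (SE 0.137). Arc, the synaptic cytoskeletal protein, ranged from 9.89 to 10.74 in Nic and from 9.68 to 10.42 in Con and differed by 0.25 (SE 0.123). Con-Pf minus Nic was 0.92 for Egr2 and 0.85 for Arc, each with a limma adjusted p of 0.000501.

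Other genes of the list differed less between Nic and Con, with 0.10 for Fos (SE 0.161), 0.14 for Junb (SE 0.111), 0.13 for Fosb (SE 0.102) and 0.05 for the phosphatase Dusp1 (SE 0.131). Npas4 was on the other side at -0.28 with an SE of 0.333, and Nr4a3 differed by 0.35 with an SE of 0.188. Npas4 differed by -0.15 and Dusp1 by 0.13 when Con 3 and Con 5 were left out. Rgs2, a brake on G protein signalling, differed by 0.21 (SE 0.0593) and the small GTPase gene Rasl11a, the smallest p of the list, by 0.32 (SE 0.0789). Rasl11a ranged from 6.96 to 7.54 in Nic, from 6.73 to 7.12 in Con and from 7.49 to 7.97 in Con-Pf. Nic was lower than Con-Pf at an adjusted p under 0.05 in Fos, Junb, Dusp1, Rgs2 and Rasl11a, with Con-Pf minus Nic between 0.40 (Rgs2) and 0.98 (Fos). For Nr4a3, Npas4, Fosb and the 2 probe sets of Fosl2 that difference did not pass, with adjusted p-values between 0.056 and 0.0852 (limma). The study lists 1 of those 2 probe sets, 10940628, as Fosb. Within Nic, the animals Nic 1 and Nic 7 lay at opposite ends. Nic 1 had the highest level of Nr4a1, Egr1, Egr2, Arc, Fos, Junb and Dusp1, and Nic 7 the lowest of these except Fos, and the mean score of the list was 0.036 in Nic 1 and -0.213 in Nic 7.

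In the clock list 7 of 17 genes were higher in Nic, with 2 higher and 5 lower at an unadjusted p under 0.05, where 14.4% of all genes were higher and 3.38% lower, and the median was -0.03. With Con-Pf 9 and Con-Pf 10 counted as Con those counts were 0 and 1, and without Con 3 and Con 5 they were 2 and 3. Bmal1, the activator of the clock, ranged from 9.14 to 9.49 (median 9.28) in Nic and from 8.93 to 9.27 (median 9.07) in Con and differed by 0.21 (SE 0.0651). All 7 Nic animals lay above the Con median. Con-Pf minus Nic was 0.30 for Bmal1 (limma adjusted p = 0.0334). Beside Per3, the genes lower at that limit were Per2 (-0.14, SE 0.0615), Tef (-0.11, SE 0.0372), Bhlhe40 (-0.16, SE 0.0585) and Nr1d2 (-0.09, SE 0.0389). Tef ranged from 10.73 to 10.91 in Nic and from 10.88 to 11.06 in Con, and 6 of 7 Nic animals lay below every Con animal. Nfil3, a repressor that opposes Tef, was higher by 0.15 (SE 0.0637). Without Con 3 and Con 5 all of these kept their direction, with 0.19 for Bmal1 and -0.18 for Bhlhe40. With Con-Pf 9 and Con-Pf 10 counted as Con the difference was 0.12 for Bmal1, -0.11 for Per3, -0.06 for Tef and -0.10 for Bhlhe40. The hour at which each animal was killed was not given, and its part in these values was not tested.

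The promoters of Nr4a1, Egr2 and Bmal1 are shown as examples, 1 each of the NR4A, EGR and clock genes. They were picked after their values were seen from genes in which Con-Pf differed from Nic at an adjusted p under 0.05 and the Nic median lay between those of Con and Con-Pf, a description that Arc and Rasl11a also meet. Each line gives the 250 bases before the start of the gene (RefSeq, GRCr8), 5′ to 3′ on the gene's own strand. Capitals mark the half-site of the cyclic AMP response element (TGACG or, on the other strand, CGTCA) in Nr4a1 and Egr2, and the core of the element bound by ROR and REV-ERB (AGGTCA or TGACCT) in Bmal1.
Nr4a1, chr7:134259888-134260137, plus strand: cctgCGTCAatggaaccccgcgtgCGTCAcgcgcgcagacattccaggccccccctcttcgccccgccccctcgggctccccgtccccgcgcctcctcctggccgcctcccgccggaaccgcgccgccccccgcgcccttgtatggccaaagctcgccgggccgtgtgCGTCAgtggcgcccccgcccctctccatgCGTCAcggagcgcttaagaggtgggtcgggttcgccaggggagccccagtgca
Egr2, chr20:21054442-21054691, minus strand: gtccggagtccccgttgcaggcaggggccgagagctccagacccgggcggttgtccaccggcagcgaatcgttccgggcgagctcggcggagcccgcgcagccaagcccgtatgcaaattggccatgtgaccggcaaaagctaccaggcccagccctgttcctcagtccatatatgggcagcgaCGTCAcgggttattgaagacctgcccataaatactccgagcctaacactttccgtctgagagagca
Bmal1, chr1:176766078-176766327, plus strand: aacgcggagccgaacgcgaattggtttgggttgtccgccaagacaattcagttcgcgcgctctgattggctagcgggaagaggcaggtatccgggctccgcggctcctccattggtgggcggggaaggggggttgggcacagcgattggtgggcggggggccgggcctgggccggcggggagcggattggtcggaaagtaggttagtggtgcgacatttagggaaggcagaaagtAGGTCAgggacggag
The half-site was found 4 times in the Nr4a1 window and 1 time in the Egr2 window, and 18.2% of 33469 rat promoters of this length hold at least 1. AGGTCA was found 1 time in the Bmal1 window, and 14.1% of promoters hold it. These matches describe the letters in the window and show no binding.

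Large housekeeping groups lay on the higher side in Nic and were low on the 2 Con arrays that stood apart. Of the subunits of oxidative phosphorylation, the mitochondrial machinery of ATP production, 66 of 69 were higher (95.7%, against 62.5% of all genes), with a median of 0.13. At an unadjusted p under 0.05, where 14.4% of all genes were higher, 26 of the subunits were higher. Ndufb6 (0.25, SE 0.0809) and Cox5b (0.26, SE 0.096, or 0.11 without Con 3 and Con 5) were among them. The mean score of these genes was -0.308 in Con 3 and -0.418 in Con 5, between -0.13 and 0.105 in the other Con animals and between -0.033 and 0.11 in Nic. Without Con 3 and Con 5 the median was 0.04 and 2 of the genes had an unadjusted p under 0.05, where 4.36% of all genes were higher and 0.534% lower at that limit. Cytosolic ribosomal proteins were higher in 67 of 68 genes with a median of 0.12, and in 43 of 68 with a median of 0.02 without those arrays. Proteasome subunits were higher in 31 of 35, with a median of 0.09 that became 0.03.

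Antioxidant and quinone reductase genes, which answer to oxidants and foreign compounds, were higher in 33 of 40 (82.5%, against 62.5% of all genes). At an unadjusted p under 0.05, 15 were higher and 0 lower, where 14.4% of all genes were higher and 3.38% lower. The mean score of the list was -0.231 in Con 3 and -0.295 in Con 5, and between -0.102 and 0.049 in the other Con animals. The list median was 0.10, and 0.05 without Con 3 and Con 5. In that setting 2 genes had such a p, where 4.36% of all genes were higher at that limit. Nqo2 differed by 0.27 with all arrays and by 0.24 without those 2. Gstk1, a mitochondrial glutathione transferase, ranged from 9.07 to 9.54 in Nic and from 8.39 to 9.22 in Con, and its difference of 0.35 (SE 0.109) became 0.20. Nqo1 (0.19) and Gsta4 (0.29) became 0.10 and 0.14. Of 30 genes listed for the metabolism of nicotine, which takes place mainly in the liver, 7 passed the filter on level, and their median was 0.04.

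Glutamate receptor genes lay on the other side, with 16 of 18 lower in Nic, 2 of 18 higher (11.1%, against 62.5% of all genes) and a median of -0.07. At an unadjusted p under 0.05, 0 were higher and 2 lower, where 14.4% of all genes were higher and 3.38% lower. Grin2a, a subunit of the NMDA receptor, ranged from 10.26 to 10.43 in Nic and from 10.26 to 11.31 in Con and differed by -0.25 (SE 0.111). Grm5, a metabotropic receptor of medium spiny neurons, differed by -0.12 (SE 0.0557). Con 3 and Con 5 had the highest scores of the list (0.223 and 0.307, against -0.066 to 0.052 in the other Con animals), and without them the median was -0.02, Grin2a -0.07 and Grm5 -0.03. In that setting 5 of 18 were higher (27.8%, against 67.7% of all genes), and 0 had such a p in either direction.

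**Figure D4:**
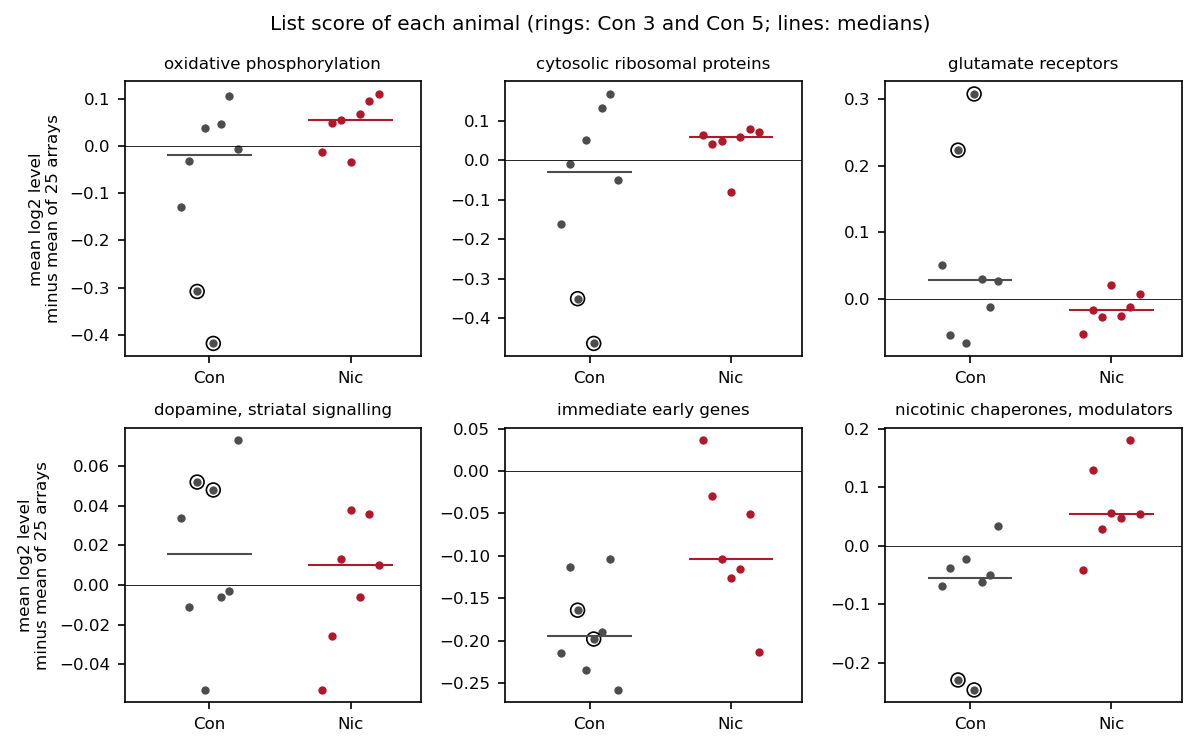
Each point is the mean log2 level of a gene list in 1 animal after centring each gene on its mean over 25 arrays (y axis), for Con and Nic in 6 lists, with the group median as a line and rings around Con 3 and Con 5. Con 3 and Con 5 lie far from the other Con animals for oxidative phosphorylation (-0.308 and -0.418), ribosomal proteins, glutamate receptors and nicotinic chaperones, and within them for dopamine signalling.

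Genes of nerve growth and of the synapse were mixed. Growth cone and neuronal cytoskeleton genes were higher in 29 of 39 (74.4%, against 62.5% of all genes), with a median of 0.06. Without Con 3 and Con 5, 33 of 39 were higher (84.6%, against 67.7% of all genes). After centring 24 of 39 were higher (61.5%, against 50.6% of all genes), with a median of 0.03. Besides Tagln3 they included Gap43 (0.19, SE 0.0608), the growth cone protein of extending axons, Crmp1 (0.15, SE 0.0481) and the microtubule regulator Stmn2 (0.14, SE 0.0507), while the heavy neurofilament Nefh lay at -0.22 (SE 0.0946). These became 0.13 for Gap43, 0.09 for Stmn2 and -0.11 for Nefh without the 2 arrays. Among synaptic vesicle and SNARE genes 29 of 46 were higher, with 9 higher and 2 lower at an unadjusted p under 0.05, where 14.4% of all genes were higher and 3.38% lower. After centring 22 of 46 were higher, with 6 higher and 6 lower at that limit, and without Con 3 and Con 5 35 of 46 were higher, with 3 and 0. Syp, the vesicle protein synaptophysin, ranged from 11.59 to 11.99 in Nic and from 11.41 to 11.87 in Con and differed by 0.22 (SE 0.0592), or 0.15 without the 2 arrays.

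Cell adhesion molecules were higher in 22 of 58 with a median of -0.03, and in 37 of 58 (63.8%, against 67.7% of all genes) without Con 3 and Con 5. Receptors and enzymes of GABA were higher in 7 of 16, then in 12 of 16, and genes of insulin and IGF signalling in 11 of 26, then in 17 of 26. In the last group Igfbp5 (0.27, SE 0.0862) and Igf1 (0.20, SE 0.0789) were higher and the receptor Igf1r (-0.17, SE 0.0742) lower, and those 3 kept their direction at 0.17, 0.10 and -0.05.

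Some further gene groups had shares of higher genes from 52.6% to 72.7%, where 62.5% of all genes were higher. TRAPP subunits were higher in 8 of 11 (median 0.14, then 0.07 without Con 3 and Con 5) and Mediator subunits in 18 of 26 (median 0.08, then 0.03). Genes of cell death were higher in 32 of 44 with a median of 0.04, and the smallest p of the list was that of the TNF receptor Tnfrsf1a (0.19, SE 0.0556, or 0.12 without Con 3 and Con 5). Heat shock and chaperone genes were higher in 18 of 26 (median 0.05, then 0.03), enzymes of DNA methylation and demethylation in 10 of 14 (median 0.04, then 0.01) and neuronal RNA-binding proteins in 16 of 29 (median 0.03, but -0.00 after a further quantile normalisation). In glucocorticoid signalling 10 of 19 were higher (8 of 19 after centring), with the metallothionein Mt1 at 0.26 (SE 0.0806) and the steroid-induced factor Klf9 at -0.20 (SE 0.0758), which became 0.14 and -0.10 without the 2 arrays.

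**Figure D5:**
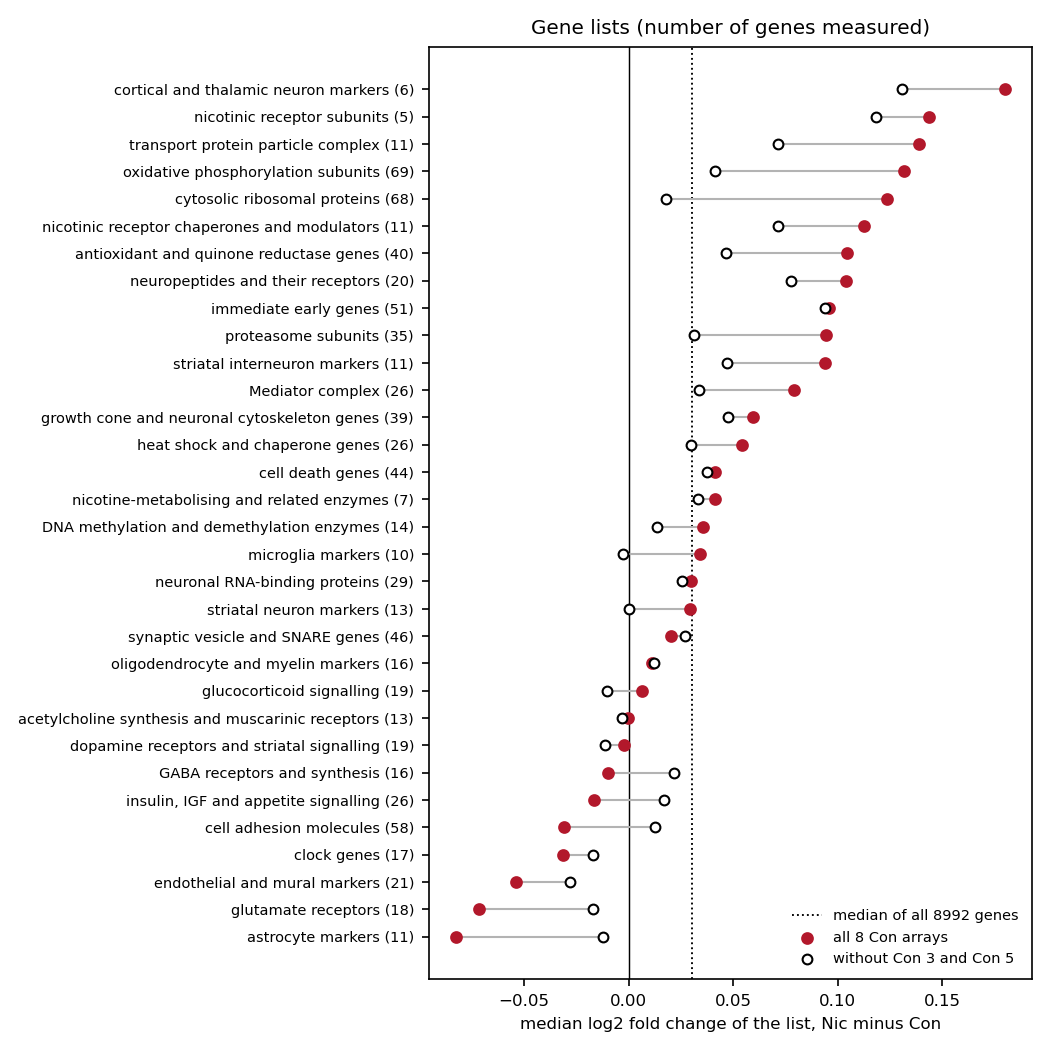
The median log2 fold change of each gene list (x axis, Nic minus Con) is shown with all 8 Con arrays (filled) and without Con 3 and Con 5 (open), for lists with at least 5 measured genes, and a dotted line marks the median of all 8992 genes (0.03). List medians range from -0.08 for astrocyte markers to 0.18 for cortical and thalamic markers, and the medians of the ribosomal, oxidative phosphorylation and glutamate receptor lists lie nearer to 0 without the 2 arrays.

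Markers of other cells were examined because the dissection could carry over neighbouring tissue. Markers of cortical and thalamic neurons were higher in Nic in 6 of the 6 measured, with a median of 0.18, and 4 of the 10 on the array, Neurod1, Neurod2, Neurod6 and Slc17a6, stayed below the filter. Their mean score ranged from -0.204 to 0.758 in Nic, highest in Nic 2 and next in Nic 7 (0.487), and from -0.254 to 0.265 in Con. Nic 2 also had the highest Slc17a7 and, among Nic animals, the highest Chrna4, Elavl4, Tagln3, Tmem35a and Vsnl1, and the part of these markers in those differences was not tested. Cck, a peptide of cortical neurons, differed by 0.34 with an SE of 0.179. Choroid plexus markers varied within groups, with a Ttr level from 6.92 to 11.56 in Nic and from 7.14 to 13.48 in Con.

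Endothelial and mural markers were higher in 6 of 21 (28.6%, against 62.5% of all genes), with a median of -0.05. At an unadjusted p under 0.05, where 3.38% of all genes were lower, 4 of the markers were lower. Those were the blood-brain barrier transporter Abcb1a (-0.27, SE 0.0923), the VEGF receptor Flt1 (-0.14, SE 0.0485), the glucose transporter Slc2a1 (-0.20, SE 0.0761) and the junction protein Cdh5 (-0.12, SE 0.0568). Cldn5, which defines the tight junctions of these cells, differed by 0.03 (SE 0.0567). Without Con 3 and Con 5 Abcb1a differed by -0.14, Flt1 by -0.08 and Slc2a1 by -0.09, the median was -0.03, and 0 of the 21 had such a p. Astrocyte markers had a median of -0.08 (5 of 11 higher), or -0.01 without those arrays, oligodendrocyte markers one of 0.01 (10 of 16 higher, but 5 of 16 after centring) and microglia markers one of 0.03 (7 of 10 higher, but 5 of 10 after centring and 5 of 10 without those arrays).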

How the data were processed

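Affymetrix Gene 1.0 ST rat arrays were hybridised with striatal RNA from 25 animals. The authors deposited log2 values, 1 for each probe set and array, made with RMA (background correction, quantile normalisation and summary over probes). Per the labels, the software was Affymetrix Expression Console 1.1. The authors had removed 2 Con arrays and 1 Nic array. Quantile normalisation removes any change shared by all genes. Signal over background was not analysed here, so precision rests on the number of arrays and the spread between animals.

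Groups were taken from the titles. The filter kept those probe sets whose mean over 25 arrays reached the median of all such means (quantile 0.5). Symbols came from the platform annotation, and of those kept 9606 carry 1 symbol, 100 several and 4901 none. 1 model over the 3 groups was fitted with limma 3.58.1 in R 4.3.3, and p-values were adjusted by Benjamini-Hochberg (0.05). The study names a Student's t-test, which was run here with unequal variances (the methods' t-test) and, as an alternative, with a pooled variance. The steps were tested on simulated data. Figures used Python 3.11.15 and matplotlib 3.10.9.

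33 gene lists were described by counts and medians, with 1 probe set a gene (the highest mean). Genes named are those past the study's thresholds, the 12 with the smallest p in each direction, those the study names, the immediate early genes it lists, all nicotinic receptor genes, and up to 4 of each other list by p, with further examples added after their values were seen. The probe sets whose groups did not overlap, and those of at least 0.5 in size, were also named after their values were seen. The lists and the genes of interest were chosen with earlier results of these data known, so no list was tested.

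The alternatives were other tests, samples, array weights, moderation, filters and scalings, a replicate block, Storey q-values, and leaving out each Nic or Con array, or Con 3 with Con 5.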

Additional observations from a re-analysis of the deposited data

Results flagged for a closer look

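Of 190 sets of values in 1 group (a gene or a list score over the animals of Nic or Con), 11 had 1 animal far from the others by Dixon's test, where chance gives about 1 in 20. The ratio in each case is the gap to the nearest animal divided by the range of the group. Pkd1 in Con had a ratio of 0.583, with Con 5 at 9.78 and the others between 9.17 and 9.42. The 2 probe sets of Fosl2 in Nic had ratios of 0.581 and 0.618, each with Nic 7 as the low animal (8.99 and 8.72). Unc50 in Nic had a ratio of 0.584, with Nic 6 at 9.88 above the others (9.59 to 9.71).

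Among the list scores of Nic, synaptic vesicle and SNARE genes had a ratio of 0.58 (Nic 1 at -0.086, the others at -0.006 to 0.052), glucocorticoid signalling 0.653 (Nic 6 at 0.096, the others at -0.025 to 0.017) and cytosolic ribosomal proteins 0.766 (Nic 4 at -0.08, the others at 0.041 to 0.078). Among those of Con, heat shock and chaperone genes had a ratio of 0.551 (Con 5 at -0.172, the others at -0.075 to 0.004), clock genes 0.534 (Con 4 at -0.065, the others at 0.005 to 0.066) and insulin, IGF and appetite signalling 0.631 (Con 4 at -0.101, the others at -0.007 to 0.048). Choroid plexus markers in Con had a ratio of 0.685, with Con 2 at 1.607 and the others between -0.753 and -0.01.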

How the results depend on the processing

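The count of 0 probe sets at an adjusted p under 0.05 was the same under every alternative run with Benjamini-Hochberg adjustment, with smallest adjusted p-values from 0.0669 (replicates 1 to 7, no block) to 0.953 (without Con 3 and Con 5). Storey q-values, smallest 0.148 with all arrays, were under 0.05 for 1 probe set, that of Nqo2, with replicates 1 to 7 only (0.036) and without Con 8 (0.0475), 2 settings that hold the same arrays of Nic and Con. Counts past the thresholds of the study, 3 in the report, became 1 with array weights, 21 with no filter, 1 with a stricter filter, 5 after centring, and between 0 (without Nic 6) and 13 (without Con 7) when 1 array was left out. Same-numbered Nic and Con arrays were not treated as pairs (correlations of their deviations from -0.362 to 0.315, 2 of 7 over 0.1). A replicate block gave 5 such probe sets, as did the same replicates with no block (5). Which animals shared a day of dissection or hybridisation was not given, so such blocks were not tested.

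At an unadjusted p under 0.05, probe sets higher in Nic (1791) became 1148 with a stricter filter, 1168 after a further quantile normalisation, 1007 after centring, 541 without Con 3 and Con 5, and 989 (without Con 5) to 2391 (without Con 7) when 1 array was left out. Those without Con 3 and without Nic 6 were 1051 and 1074. Those lower (579) became 348 with the methods' t-test, 343 with a pooled variance, 1173 with no filter, 323 with a stricter filter, 1071 after quantile normalisation, 1226 after centring, 290 with Con-Pf 9 and 10 counted as Con, 138 without Con 3 and Con 5, and 260 (without Con 5) to 1017 (without Con 4) when 1 array was left out, with 304 without Con 3. The share of these probe sets that was higher was 75.6%, and 52.2% after quantile normalisation and 45.1% after centring, so the excess on the higher side depends on the scaling.

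Intervals inside 0.5 numbered 27679 of 29214 with no filter and 7193 of 7304 with a stricter filter. The median difference of 0.0238 became -0.0053 with no filter, 0.0008 after quantile normalisation and -0.0051 after centring. Of 172 named probe sets, 0 had a Benjamini-Hochberg adjusted p under 0.05 under any alternative, and at most 6 changed sign under 1 alternative (Con-Pf 9 and 10 counted as Con), 4 without Con 3 and Con 5.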
